A study of Mus musculus with 4 samples.

Results

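A group of 10 adhesion genes was followed in single mouse bone marrow cells: Cd44, the 3 linker genes Ezr, Msn and Rdx, the integrin genes Itga4, Itgb1 and Itgb2, and Cd47, Cd24a and Spn. They were taken by name, and all 10 were found among the 17507 gene names of the deposited tables. The cells were CD51- marrow cells of C57BL/6 mice of unstated age and number, named TNCs without the abbreviation being spelled out, and were sorted as CD44+ or CD44-, so both sorts lack surface CD51. For every group the marrow had been digested with dispase at 1 mg/mL and collagenase IV at 2 mg/mL, and the sorted cells were lysed by heat for 5 min. The series title concerns the blood origin of marrow cells without CD45. SORT-seq, a plate method with a barcode per well and a molecular identifier per transcript, was run on 4 plates of 384 wells. Replicate 1 of each sort was a whole plate, and replicates 2 and 3 were row blocks, A to H for CD44+ and I to P for CD44-, of 2 shared plates.

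CD44 is the main surface receptor for hyaluronan, a sugar chain of the marrow matrix, and its tail is tied to the actin cortex by ezrin, radixin and moesin, the ERM proteins. Integrins are paired alpha and beta chains that bind matrix and other cells; alpha 4 with beta 1 holds blood progenitors and erythroblasts to VCAM1 and fibronectin, and beta 2 pairs with leukocyte alpha chains. CD47 is the surface signal that restrains engulfment by macrophages, CD24 is a heavily glycosylated anchored protein of immature B and red cells, and CD43, the product of Spn, is a long sialomucin of blood cells. In mouse marrow, surface CD44 is known to fall as erythroblasts mature.

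Promoter sequences are shown for 4 of the genes: Cd44, the antigen of the sort, Ezr and Msn, linkers of 1 family that stood at different levels in the cell classes, and Spn, which was lower in the later erythroid wells. They are RefSeq sequences on GRCm38.p6, from 250 bases before to 50 bases after the gene start, written along the gene's strand. RefSeq promoters matched 8 of the 10 genes, the others being Itgb2 and Cd24a. Capitals mark 3 motifs searched on both strands: AGATAA, a form of the GATA site, GAGGAA, a form of the PU.1 site, and CCNCNCCC, a form of the KLF site; where matches overlap the run of capitals covers both.
Cd44 chr2:102901616-102901915 (-): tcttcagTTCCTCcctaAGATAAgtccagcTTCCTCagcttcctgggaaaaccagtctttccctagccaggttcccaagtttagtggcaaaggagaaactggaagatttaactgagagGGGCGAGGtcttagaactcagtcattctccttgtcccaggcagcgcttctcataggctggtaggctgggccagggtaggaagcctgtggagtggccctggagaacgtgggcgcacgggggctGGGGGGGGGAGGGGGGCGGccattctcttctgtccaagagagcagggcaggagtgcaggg
Ezr chr17:6782731-6783030 (-): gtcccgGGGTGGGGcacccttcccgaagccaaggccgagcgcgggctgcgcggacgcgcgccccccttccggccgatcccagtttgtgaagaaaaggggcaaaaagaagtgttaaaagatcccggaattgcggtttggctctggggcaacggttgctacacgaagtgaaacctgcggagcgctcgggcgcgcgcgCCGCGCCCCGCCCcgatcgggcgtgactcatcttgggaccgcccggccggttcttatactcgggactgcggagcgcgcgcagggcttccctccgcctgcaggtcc
Msn chrX:96095795-96096094 (+): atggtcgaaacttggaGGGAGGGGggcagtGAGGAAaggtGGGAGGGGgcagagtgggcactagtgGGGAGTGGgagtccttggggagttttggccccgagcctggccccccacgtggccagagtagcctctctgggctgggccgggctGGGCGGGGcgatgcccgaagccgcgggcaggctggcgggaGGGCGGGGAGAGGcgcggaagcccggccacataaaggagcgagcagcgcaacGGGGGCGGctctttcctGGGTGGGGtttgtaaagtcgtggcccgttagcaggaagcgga
Spn chr7:127137774-127138073 (-): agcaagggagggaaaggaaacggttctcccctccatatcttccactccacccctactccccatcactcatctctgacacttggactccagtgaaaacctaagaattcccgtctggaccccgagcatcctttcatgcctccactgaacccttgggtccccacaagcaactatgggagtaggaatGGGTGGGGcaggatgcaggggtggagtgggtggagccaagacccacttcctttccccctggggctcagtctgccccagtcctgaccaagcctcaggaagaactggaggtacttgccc
The Cd44 promoter held 1 AGATAA, 2 GAGGAA and 6 CCNCNCCC matches. The Ezr promoter held 3 CCNCNCCC matches and neither of the other motifs, the Msn promoter 1 GAGGAA and 8 CCNCNCCC matches, and the Spn promoter 1 CCNCNCCC match. Of 32851 promoters of the same length, 11.2% held AGATAA, 28.3% GAGGAA and 49.5% CCNCNCCC, and a match is a description of the sequence only.

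Wells with at least 1000 transcripts were kept as cells, which left 343 of 1536 wells, 238 of CD44+ and 105 of CD44-. The CD44+ libraries held 56, 95 and 87 wells with 149707, 1118722 and 1707318 transcripts, and the CD44- libraries 44, 24 and 37 wells with 97041, 101367 and 158763. Wells of low quality, with at least 10% of transcripts from Kcnq1ot1 and 4 genes counted with it, or at least 50% from mitochondrial genes, numbered 31, 39 and 22 in the CD44+ libraries and 19, 1 and 4 in the CD44- libraries. Ptprc, which encodes CD45, was at 37.5 to 146 transcripts per 1000000 (CPM) in the CD44+ libraries and at 94.5 to 356 CPM in the CD44- libraries. Itgav, which encodes CD51, was at 6.45 to 17 CPM in the CD44+ libraries and 20.6 to 120 CPM in the CD44- libraries. Summed over 18 stromal markers, the CD44+ libraries held 267 to 2102 CPM and the CD44- libraries 7636 to 39779 CPM. In the order of replicates 1, 2 and 3, 22 myeloid markers summed to 5629, 14228 and 10284 CPM in the CD44+ libraries and to 27660, 38046 and 1449 CPM in the CD44- libraries. Over 18 early erythroid markers the sums were 4164, 3303 and 7383 CPM in the CD44+ libraries against 814, 1589 and 1897 CPM in the CD44- libraries. Without the stromal wells 0 of 1768 genes were called between the sorts in edgeR, against 25 of 2463 with them. Calls were also 0 in wells thinned to 1000 transcripts and without any 1 library other than CD44- replicate 1. The part of any class in the differences between sorts was not tested. In sums of cells, fewer cells of a type and less RNA per cell cannot be told apart.

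Cd44 transcripts were not called different between the cells sorted with and without surface CD44. Cd44 (GRCm38 chromosome 2, 102811141 to 102901665, reverse strand, in the GENCODE vM21 annotation used for all genes here) had 93.5, 284 and 225 CPM in CD44+ replicates 1, 2 and 3, against 124, 345 and 113 CPM in CD44- replicates 1, 2 and 3. The sorts overlapped, with the highest value in the CD44- sort. The transcripts behind these values numbered 14, 317 and 385 in the CD44+ libraries and 12, 35 and 18 in the CD44- libraries. The mean was 201 ± 97.4 CPM for CD44+ and 194 ± 131 CPM for CD44- (SD, n = 3 each), giving a log2 difference of -0.04 (standard error 0.50, adjusted p = 0.973 in edgeR's quasi-likelihood test with Benjamini-Hochberg adjustment over 2463 genes). Its sign changed with several settings, among them the fit with the replicate number as a block (log2 difference 0.03).

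After each well was thinned to 1000 transcripts, Cd44 was found in 7.14%, 23.2% and 18.4% of the wells of CD44+ replicates 1, 2 and 3 and in 11.4%, 20.8% and 13.5% of those of CD44- replicates 1, 2 and 3. The mean share was 16.2% ± 8.22 of CD44+ wells and 15.2% ± 4.96 of CD44- wells (SD, n = 3 each; exact two-sided permutation p = 0.9). Without thinning it was 46.6% ± 23.4 of CD44+ wells and 27.2% ± 12.7 of CD44- wells, at median depths of 1994, 5162 and 11225 transcripts per well in the CD44+ libraries and 1848, 1795 and 2544 in the CD44- libraries. With 3 libraries against 3 the smallest possible p is 0.1, and over the 10 genes the adjusted exact p-values were all 0.9. The result moved with the depth. Among wells that could be thinned to 2000 transcripts, 27, 74 and 75 of the CD44+ libraries and 20, 10 and 24 of the CD44- libraries, Cd44 was found in 25.9%, 33.8% and 24% of the CD44+ wells and in 15%, 20% and 16.7% of the CD44- wells. There the sorts did not overlap, with 27.9% ± 5.18 of CD44+ wells and 17.2% ± 2.55 of CD44- wells (SD, n = 3 each; exact permutation p = 0.1, adjusted 0.714 over the 10 genes). How often such shares do not overlap over all genes was not counted.

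The other 9 genes did not pass the test between sorts either. Of the 10 genes, 0 were called at an adjusted p under 0.05 in edgeR, where 1.02% of all 2463 genes tested were called (1 higher and 24 lower in the CD44+ sort). DESeq2 called 0 of the 10 and 270 genes in all. At an unadjusted p under 0.05 edgeR had 470 genes, and of the 10 only Itgb1 was among them. With the replicate number as a block, 0 of the 10 and 6.33% of all genes were called. The median log2 difference of the 10 genes was -0.11, that of all genes tested -0.04, and 2 of the 10 were above 0.

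Among the linkers, Ezr (chromosome 17, 6738041 to 6782784, reverse strand) had 154, 164 and 224 CPM across the CD44+ libraries, against 227, 217 and 94.5 CPM across the CD44- libraries. Msn (chromosome X, 96096042 to 96168552, forward strand) had 26.7, 176 and 70.3 CPM across the CD44+ libraries, against 61.8, 138 and 170 CPM across the CD44- libraries. Rdx (chromosome 9, 52047173 to 52088735, forward strand) had 140, 199 and 196 CPM across the CD44+ libraries, against 155, 207 and 145 CPM across the CD44- libraries. All 3 overlapped between the sorts, and Rdx had the narrowest spread, with 178 ± 33 CPM for CD44+ and 169 ± 33.5 CPM for CD44- (SD, n = 3 each). Ezr and Msn share exonic bases with a gene on the opposite strand, Sytl3 and Gm24718 in that order, and Itga4 does so with Cerkl. Since the sources used here do not say whether strand was used, reads of such partners cannot be told apart.

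Among the integrins, the beta chains Itgb1 and Itgb2 had lower means in the CD44+ sort. Itgb1 (chromosome 8, 128685654 to 128733200, forward strand), the beta chain shared by most matrix receptors, had 66.8, 155 and 193 CPM across the CD44+ libraries, against 134, 257 and 523 CPM across the CD44- libraries. It was lower in the CD44+ library of each pair, with log2 differences of -0.91, -0.69 and -1.39 after 10 CPM were added, but the sorts overlapped, and the log2 difference was -1.22 (standard error 0.47, adjusted p = 0.215 in edgeR; 0.0688 with the replicate block). CD44- replicate 3, where Itgb1 was highest, also held the most stromal transcripts, 39779 CPM over the 18 markers; without stromal wells the log2 difference was -0.65. Itgb2 (chromosome 10, 77530252 to 77565708, forward strand) had 46.8, 149 and 38.7 CPM across the CD44+ libraries, against 258, 306 and 69.3 CPM across the CD44- libraries, with a log2 difference of -1.51 (standard error 0.71, adjusted p = 0.292; 0.0630 with the replicate block). Without CD44+ replicate 2 the difference was -2.30, and without CD44+ replicate 3 it was -1.001. Its 2 highest libraries, CD44- replicates 1 and 2, were those with the highest sums of myeloid markers. Itga4 (chromosome 2, 79255426 to 79333123, forward strand) had 541, 322 and 287 CPM across the CD44+ libraries, against 526, 217 and 183 CPM across the CD44- libraries, higher in the whole plates than in the shared plates in both sorts.

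Of the remaining genes, Cd24a was the only one of the 10 whose CPM did not overlap between sorts. Cd24a (chromosome 10, 43578284 to 43584265, forward strand) had 1278, 1456 and 1403 CPM across the CD44+ libraries, against 2106, 1465 and 1769 CPM across the CD44- libraries. The gap between the nearest libraries was small, the log2 difference was -0.47 (standard error 0.33, adjusted p = 0.457 in edgeR), and 26% of all 2463 genes tested had sorts that did not overlap. In thinned wells Cd24a was found in 46.7% ± 6.05 of CD44+ wells and 62.7% ± 9.48 of CD44- wells (exact permutation p = 0.1). Cd47 (chromosome 16, 49800533 to 49915010, forward strand) had 374, 515 and 570 CPM across the CD44+ libraries, against 340, 592 and 555 CPM across the CD44- libraries. Spn (chromosome 7, 127132232 to 127137823, reverse strand) had 86.8, 206 and 191 CPM across the CD44+ libraries, against 124, 227 and 94.5 CPM across the CD44- libraries. Both overlapped between the sorts. At 1000 transcripts the share for Itgb1 was 9.23% ± 4.94 of CD44+ wells against 21.1% ± 12.5 of CD44- wells (exact permutation p = 0.3). At 2000 transcripts Itgb2 was found in 10.7% ± 8.60 of CD44+ wells against 30.8% ± 25.5 of CD44- wells (exact permutation p = 0.3), and the difference for Cd24a was -3.87 percentage points.

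**Figure D1:**
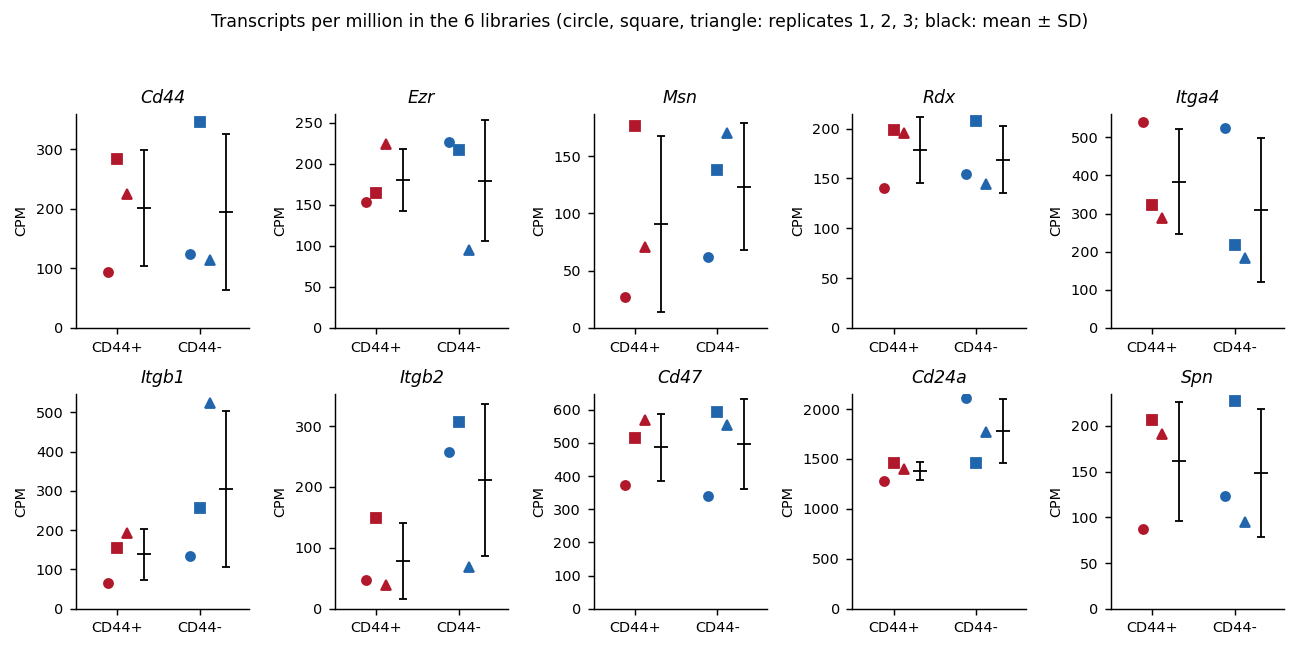
Each panel gives 1 gene's CPM (y axis, linear from 0) in the 3 CD44+ libraries (left) and the 3 CD44- libraries (right), with the mean and SD in black beside them. Cd24a is the only panel in which the sorts do not overlap, with 1278 to 1456 CPM for CD44+ and 1465 to 2106 CPM for CD44-.

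Among lists of related genes, counts between the sorts were also low. Of 7 tested ligands or partners, from a list of 21, 1 was lower in the CD44+ sort, Vcam1, the stromal ligand of integrin alpha 4 beta 1 (log2 difference -4.41, standard error 0.71, adjusted p = 0.0410 in edgeR). Its call was lost without any 1 of the libraries other than CD44- replicate 1, with adjusted p-values of 0.0639 to 0.189 and log2 differences of -4.72 to -3.31, and without the deepest wells (adjusted p = 0.0569). Without the stromal wells, whose markers summed to 267 to 2102 CPM in the CD44+ libraries and 7636 to 39779 CPM in the CD44- libraries, Vcam1 and Spp1 were below the filter and were not tested. Spp1, which encodes osteopontin, a ligand of CD44 and integrins, was lower with the replicate block (log2 difference -4.09, adjusted p = 0.0232; 0.0813 without it). None passed among 1 tested of 23 further integrin chains, 14 tested of 24 integrin activation genes, 10 tested of 18 ERM regulators and cortex genes, or 5 tested of 12 sialomucins and sialic acid lectins. The median log2 difference of these lists was -1.57, -0.88, -0.55 and -0.77 in that order, against -0.04 for all genes tested.

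To see where the 10 genes are transcribed, wells were placed in classes by marker lists that hold none of them. This gave 80 early erythroid, 13 late erythroid, 50 B, 55 myeloid and 19 stromal wells, and 126 with no class. The rule fixes that a class is high in its own markers, whose sums were, as a description, 8898 CPM in early erythroid, 26004 CPM in late erythroid, 15327 CPM in B, 71256 CPM in myeloid and 85467 CPM in stromal wells. All early erythroid sums of at least 3 wells came from CD44+ libraries and all late erythroid ones from CD44- libraries, so stage and sort cannot be told apart between these 2 classes. Median depths were 16526, 1624, 4230, 2829 and 6367 transcripts per well for the early erythroid, late erythroid, B, myeloid and stromal classes.

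Pooled over wells, Cd44 was at 411 CPM in myeloid wells (95% exact Poisson interval 358 to 468), 228 CPM in early erythroid wells (207 to 251) and 194 CPM in B wells (146 to 253). It was at 89.2 CPM in stromal wells (46.1 to 156) and, with 2 transcripts, at 74.3 CPM in late erythroid wells (8.99 to 268); these intervals cover counting error only. By library, myeloid wells had 285, 518 and 287 CPM in CD44+ replicates 1, 2 and 3 and 120 and 614 CPM in CD44- replicates 1 and 2. B wells had 269, 172 and 258 CPM in CD44+ replicates 1, 2 and 3 and 206 and 238 CPM in CD44- replicates 1 and 3. Early erythroid wells had 81.2, 257 and 226 CPM in CD44+ replicates 1, 2 and 3, the only libraries with at least 3 such wells. The neighbours in this order overlapped. In thinned wells Cd44 was found in 30.9% of myeloid, 28% of B, 13.8% of early erythroid, 15.4% of late erythroid and 5.26% of stromal wells. The share in stromal wells was 1 well of 19.

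Class sums were compared with edgeR with the library as a block. With TMM scaling over all 18 sums the median log2 difference of the 978 genes tested was itself -0.95 for B minus early erythroid, -0.81 for myeloid minus early erythroid and 0.28 for myeloid minus B, so values are read against these medians. Over the 10 sums of the CD44+ libraries alone, with 5918 genes tested, the medians were -0.16, -0.17 and 0.07. The filter over all sums kept 7 of the 10 genes (not Ezr, Rdx and Spn), and the CD44+ libraries alone kept all 10. Cd44 was not called in any of these contrasts: its log2 difference in the CD44+ libraries was 0.80 for myeloid minus early erythroid (standard error 0.47, adjusted p = 0.265), 1.02 for myeloid minus B (standard error 0.56, adjusted p = 0.316) and -0.22 for B minus early erythroid (standard error 0.55, adjusted p = 0.835).

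Itgb2 was higher in myeloid wells. The beta chain of the leukocyte integrins had 214, 323 and 268 CPM in the myeloid wells of CD44+ replicates 1, 2 and 3 and 803 and 358 CPM in those of CD44- replicates 1 and 2. Early erythroid wells of CD44+ replicates 1, 2 and 3 had 16.2, 56 and 5.25 CPM. B wells had 67.2, 156 and 0 CPM in CD44+ replicates 1, 2 and 3 and 51.4 and 102 CPM in CD44- replicates 1 and 3. No myeloid library overlapped with either other class. How often class sums do not overlap over all genes was not counted, so a lack of overlap between classes, here and below, is a description only. The log2 difference was 3.53 for myeloid minus early erythroid (standard error 0.97, adjusted p = 0.00199) and 2.89 for myeloid minus B (standard error 0.89, adjusted p = 0.00954), and in the CD44+ libraries alone 3.83 (adjusted p = 1.63e-09) and 2.09 (adjusted p = 0.0207). Without CD44+ replicate 2, CD44+ replicate 3 or CD44- replicate 2, under the stricter class rule and in thinned wells, Itgb2 was below the filter and was not tested. Itgam, the alpha chain that pairs with it in Mac-1, rose with it, by 7.01 over early erythroid wells and 3.29 over B wells on the log2 scale in the CD44+ libraries.

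Cd24a was lower in myeloid wells. It had 1285, 395 and 503 CPM in the myeloid wells of CD44+ replicates 1, 2 and 3 and 1646 and 1254 CPM in those of CD44- replicates 1 and 2. B wells had 1885, 2183 and 1924 CPM in CD44+ replicates 1, 2 and 3 and 5099 and 4709 CPM in CD44- replicates 1 and 3. Early erythroid wells had 2180, 2082 and 1648 CPM in the 3 CD44+ libraries. The highest myeloid library, CD44- replicate 1 at 1646 CPM, lay just under the lowest early erythroid one. The log2 difference from early erythroid wells was -2.19 (standard error 0.52, adjusted p = 0.000234), and -1.78 in the CD44+ libraries alone (standard error 0.42, adjusted p = 0.000292). The call was lost with RLE scaling (log2 difference -1.01, adjusted p = 0.149), with DESeq2 (-0.97, adjusted p = 0.173) and without CD44+ replicate 2 (-0.96), CD44+ replicate 3 (-1.09) or CD44- replicate 3 (-1.36), without a filter on low counts (-1.72) and in thinned wells (-0.65). From B wells the difference was -1.16 (standard error 0.46, adjusted p = 0.0610), and -1.56 in the CD44+ libraries alone (standard error 0.43, adjusted p = 0.00613).

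Itgb1 was lower in the summed transcripts of B wells than in those of early erythroid wells. It had 0, 57.2 and 36.9 CPM in the B wells of CD44+ replicates 1, 2 and 3 and 206 and 102 CPM in those of CD44- replicates 1 and 3, against 130, 226 and 198 CPM in the early erythroid wells of CD44+ replicates 1, 2 and 3. Within the CD44+ libraries the classes did not overlap. The log2 difference was -2.83 (standard error 0.81, adjusted p = 0.00296), and -2.35 in the CD44+ libraries alone (standard error 0.67, adjusted p = 0.00508). The call was lost with RLE scaling (log2 difference -1.46, adjusted p = 0.0824), with DESeq2 (-1.47, adjusted p = 0.0583), without a filter on low counts (-2.26) and without CD44+ replicate 3 (-1.67) or CD44- replicate 3 (-1.61); without CD44+ replicate 2 the gene was not tested, and in thinned wells the value was -0.46. In stromal wells Itgb1 was at 804 CPM pooled (Poisson interval 659 to 970) and was found in 57.9% of thinned wells, the highest of the 5 classes on both counts.

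In all, edgeR called 1 of the 7 genes for B minus early erythroid, where 43.3% of all genes were called, 2 for myeloid minus early erythroid, where 39% were, and 1 for myeloid minus B, where 18.1% were. For late minus early erythroid, 0 of the 7 and 15.8% of all genes were called in edgeR, with 1 of the 7 in DESeq2 (Cd47). In edgeR 325 of 978 genes had an unadjusted p under 0.05, among them Cd24a and Itga4. The median log2 difference of all genes in this contrast was -1.93. Cd24a lay above that median at -1.74, and it was at 0.49 with RLE scaling. Its late sums had 2570 and 5794 CPM and its early ones 1648 to 2180 CPM. Itga4 was at -3.72, and at -1.78 with RLE scaling. In the CD44+ libraries alone the counts were 1 of 10 against 16.3% for B minus early erythroid, 4 of 10 against 18% for myeloid minus early erythroid, and 2 of 10 against 7.99% for myeloid minus B. Beyond the calls over all sums, those of the CD44+ libraries were the linkers Msn and Ezr for myeloid minus early erythroid, in opposite directions, and Cd24a for myeloid minus B.

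Msn was higher and Ezr lower in the myeloid wells of the CD44+ libraries than in their early erythroid wells. Msn, the linker known as the main ERM protein of leukocytes, had 71.4, 355 and 153 CPM in the myeloid wells of CD44+ replicates 1, 2 and 3 and 0, 107 and 57.8 CPM in the early erythroid wells of the same libraries. The value was higher in the myeloid wells of each library, with a log2 difference of 1.62 (standard error 0.53, adjusted p = 0.0152). Ezr had 71.4, 71.7 and 139 CPM in the myeloid wells and 276, 243 and 253 CPM in the early erythroid wells of these libraries. These values did not overlap, which is a description only, since the share of all genes that do not overlap was not counted. The log2 difference of Ezr was -1.39 (standard error 0.50, adjusted p = 0.0350). In the myeloid wells of CD44- replicates 1 and 2 Ezr was at 120 and 256 CPM, the latter within the early erythroid range. Msn was at 80.2 and 282 CPM there. For both genes the 71.4 CPM in CD44+ replicate 1 is 1 transcript. Over all 18 sums Msn was not called with TMM scaling (log2 difference 1.04, adjusted p = 0.358), but it was with RLE scaling (2.04, adjusted p = 0.0478). In stromal wells 0 Ezr transcripts were counted among 134458; taking 3 transcripts as the limit that a count of 0 allows, this is up to 22.3 CPM. B wells held both linkers, with 237 CPM of Ezr and 261 CPM of Msn pooled. Rdx was at 194 CPM pooled in B, 160 CPM in myeloid, 208 CPM in stromal and 228 CPM in early erythroid wells, and was called in no contrast of the CD44+ libraries.

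Itga4, Cd47 and Spn were called in none of the contrasts among myeloid, B and early erythroid wells in which edgeR tested them with TMM scaling and the library as block, over all sums (Itga4 and Cd47) or in the CD44+ libraries (all 3). Without the block Cd47 was called for B minus early erythroid. Itga4 was at 428 CPM pooled in B wells, 312 CPM in early erythroid, 184 CPM in myeloid and 66.9 CPM in stromal wells; deep libraries weigh most in a pooled value. By library it had 740, 474 and 258 CPM in the B wells of CD44+ replicates 1, 2 and 3 and 257 and 238 CPM in those of CD44- replicates 1 and 3. Myeloid wells had 714, 199 and 95.6 CPM in CD44+ replicates 1, 2 and 3 and 361 and 256 CPM in CD44- replicates 1 and 2. Early erythroid wells had 292, 378 and 289 CPM in the CD44+ libraries, and stromal wells 139 CPM in CD44+ replicate 2 and 618 and 27.5 CPM in CD44- replicates 1 and 3. All of these classes overlapped, with means of 393 ± 217, 325 ± 237, 320 ± 50.8 and 262 ± 314 CPM for B, myeloid, early erythroid and stromal wells (SD, n = 5, 5, 3 and 3). Pooled in the same way, Cd47 was at 562 CPM in B, 525 CPM in myeloid, 544 CPM in stromal and 606 CPM in early erythroid wells, and its early erythroid sums agreed within 594 to 608 CPM over 3 libraries. Spn was at 255 CPM in myeloid, 177 CPM in B, 204 CPM in early erythroid and, with 3 transcripts, at 22.3 CPM in stromal wells.

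**Figure D2:**
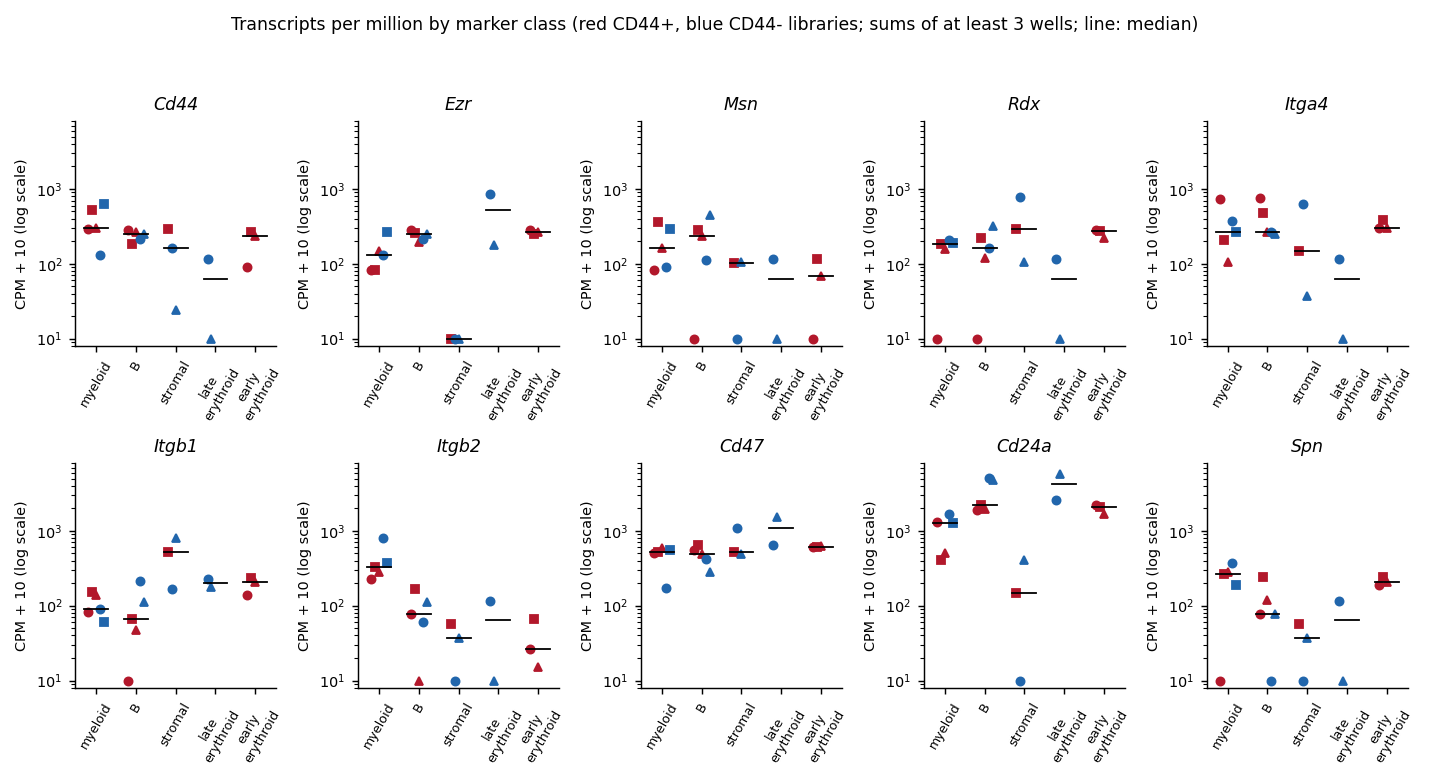
Each panel gives 1 gene's CPM plus 10 (y axis, log scale) in sums of at least 3 wells of a marker class, with 1 point per library (red CD44+, blue CD44-) and the median as a line; points at 10 are sums with no transcript. Itgb2 is highest in the myeloid column, at 214 to 803 CPM, and Ezr lies at 0 CPM in all 3 stromal sums.

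The lists of related genes were also counted in myeloid wells of the CD44+ libraries. Relative to early erythroid wells, 4 of 5 tested integrin chains rose, led by Itgam and by Itgal, the alpha chain of LFA-1 (log2 difference 4.77, adjusted p = 2.72e-08), and 0 fell. Of 16 tested integrin activation genes 6 rose, among them Zyx (4.64) and Rasgrp2 (4.47), which activates Rap1, and 0 fell. Of 13 ligands or partners 3 rose, among them Sirpa, the receptor for CD47 (5.22), and 3 fell, among them the protease gene Mmp14 (-5.13). Of 13 ERM regulators and cortex genes 5 rose, among them Arhgdib (5.10), and 1 fell, the erythroid ankyrin gene Ank1 (-5.75). Of 6 sialomucins and sialic acid lectins 5 rose, among them Emb (7.43) and Cd34 (8.58), and 0 fell. The background was 11.4% of 5918 genes higher and 6.67% lower. The filter kept 5 of 23 integrin chains, 16 of 24 activation genes and 13 of 21 ligands or partners. It also kept 13 of 18 ERM regulators and cortex genes and 6 of 12 sialomucins and lectins. A gene could pass it by a high count in 1 sum alone. The filter itself may therefore favour genes that rose, and the shares describe the kept genes only.

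Between sorts within a class, only B and myeloid wells had at least 2 sums of each sort. In B wells Cd24a did not overlap between sorts, with 1885 to 2183 CPM for CD44+ and 4709 and 5099 CPM for CD44-, with a log2 difference of -1.10 (standard error 0.38, unadjusted p = 0.00718, adjusted p = 0.70 in edgeR). Cd47 and Itga4, the other genes of the 10 tested there, did not overlap either, with adjusted p-values of 0.99 in edgeR. Cd47 had 480 to 635 CPM for CD44+ and 411 and 272 CPM for CD44-. Itga4 had 258 to 740 CPM for CD44+ and 257 and 238 CPM for CD44-. Itgb1, below the filter there, had 0 to 57.2 CPM for CD44+ and 206 and 102 CPM for CD44-. Of all 433 genes tested in B wells, 23.6% had sorts that did not overlap. In myeloid wells Itgb2 did not overlap either, with 214 to 323 CPM for CD44+ and 358 and 803 CPM for CD44- (log2 difference -1.51, standard error 0.50, adjusted p = 0.564), as did 27.9% of all 595 genes tested there. Without CD44- replicate 1, the library at 803 CPM, the difference was -0.64. Rdx, below the filter in myeloid wells, did not overlap there either, with 0 to 171 CPM for CD44+ and 201 and 179 CPM for CD44-. In edgeR 0 genes were called in either class, so the background was 0%, while 20 of 433 genes in B wells and 48 of 595 in myeloid wells had an unadjusted p under 0.05; DESeq2 called 0 and 3 genes. With the replicate number as a block, added after seeing the data, 14 genes (3.23%) were called in B wells and 1 (0.168%) in myeloid wells, none of them among the 10 (Cd24a in B wells: log2 difference -1.12, adjusted p = 0.163). Cd44 in myeloid wells had a log2 difference of -0.50 (standard error 0.72, adjusted p = 0.860), which turned to 1.5 without CD44- replicate 2.

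Within the erythroid wells of the CD44+ sort, the later wells held more Cd24a and less Spn. For this comparison, chosen after the data had been seen, the erythroid wells of each CD44+ library were split at the library's median share of late among all erythroid marker transcripts. The later wells numbered 9, 6 and 25 and the earlier ones 9, 6 and 28 in replicates 1, 2 and 3. The late markers took a median 31.3%, 30.1% and 33.3% in the later wells and 10.8%, 11% and 16% in the earlier wells. Median depth did not differ in 1 direction, with 1981, 30490 and 16196 transcripts per well in the later wells and 2948, 23135 and 23834 in the earlier ones. Wells of low quality numbered 2, 0 and 4 among the later wells and 0, 2 and 3 among the earlier ones.

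Cd24a had 2472, 3416 and 2502 CPM in the later wells of replicates 1, 2 and 3 and 1685, 732 and 1050 CPM in the earlier wells. All later values were above all earlier ones, and the log2 difference was 1.37 (standard error 0.24, adjusted p = 0.0118 in edgeR, library as block). Spn had 90.2, 105 and 110 CPM in the later wells and 259, 364 and 253 CPM in the earlier wells, again with no overlap, with a log2 difference of -1.50 (standard error 0.30, adjusted p = 0.0228). Of 9 genes tested 1 was called higher and 1 lower, against 2.78% of all 3565 genes (1.63% higher and 1.15% lower). The share of all genes whose later and earlier wells do not overlap was not counted. The lack of overlap, here and for Ezr below, is therefore a description only. The Cd24a call was lost without CD44+ replicate 3 (log2 difference 1.35, adjusted p = 0.353), which holds most of the wells, and in wells thinned to 1000 transcripts (log2 difference 0.93, adjusted p = 0.711). The Spn call was lost without CD44+ replicate 1 (adjusted p = 0.0649), 2 (0.221) or 3 (0.353) and in DESeq2 (0.0680), with log2 differences between -1.88 and -1.19.

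Cd44 had 30.1, 160 and 163 CPM in the later wells of replicates 1, 2 and 3 and 130, 354 and 268 CPM in the earlier wells. It was lower in the later wells of 3 of 3 libraries, but across libraries the values overlapped, and the log2 difference of -1.01 did not pass (standard error 0.30, unadjusted p = 0.00471, adjusted p = 0.0890). Ezr had 331, 329 and 349 CPM in the later wells and 194, 151 and 185 CPM in the earlier wells, with no overlap and a log2 difference of 0.93 that did not pass either (standard error 0.25, adjusted p = 0.0665). It passed without wells of low quality (log2 difference 0.97, adjusted p = 0.0255). Cd47, Itga4, Itgb1, Msn and Rdx had log2 differences of 0.36, 0.17, 0.20, -0.06 and -0.26, with adjusted p-values between 0.498 and 0.977. Itgb2 was below the filter. Among the lists of related genes, Ank1 rose in the later wells (log2 difference 1.26, adjusted p = 0.0351), 1 of 8 tested ERM regulators and cortex genes, and none passed among 10 integrin activation genes, 6 ligands or partners and 1 sialomucin.

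**Figure D3:**
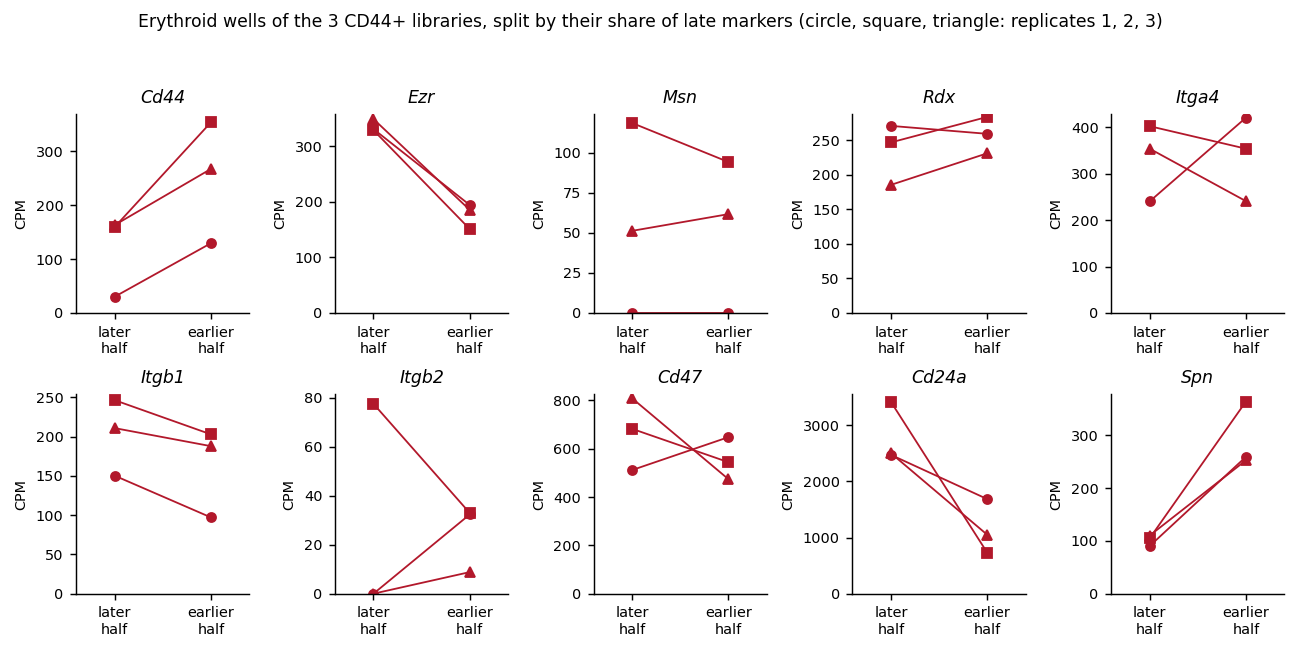
Each panel gives 1 gene's CPM (y axis, linear from 0) in the later (left) and earlier (right) erythroid wells of each CD44+ library, joined by a line. Cd24a and Ezr are higher in the later wells of all 3 libraries, and Spn and Cd44 are lower.

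Which genes varied with Cd44 was described in further ways, without a test. Over the 18 class sums, the 5 genes closest to Cd44 by Pearson's r of log2(CPM + 10), among 977 ranked, were Rps14 (0.79), mtCo3 (0.75), Fau (0.75), Cdc42 (0.75) and Itga4 (0.74); sums from 1 library share its depth and scaling. Of the other genes, r was 0.49 for Msn, 0.46 for Itgb2, 0.39 for Spn, 0.31 for Rdx, 0.15 for Ezr, -0.15 for Cd24a, -0.37 for Cd47 and -0.38 for Itgb1. The late erythroid sums of CD44- replicates 1 and 3 held 1 and 0 transcripts of Cd44, and the same of Itga4. Such sums near the floor also enter r. Between single wells, the largest set was the early erythroid wells of CD44+ replicate 3, of which 47 reached 5000 transcripts and were thinned to that depth; 25 held a Cd44 transcript and 22 did not. Rdx averaged 1.28 transcripts in wells with Cd44 and 0.77 in wells without it (Spearman's rho 0.30), Itga4 1.20 and 1.86 (rho -0.16), and Cd24a 7.32 and 9.95 (rho -0.10). In 10 early erythroid wells of CD44+ replicate 2 thinned to 2000 transcripts, Spn averaged 1.6 in the 5 wells with Cd44 and 0.20 in the 5 without it (rho 0.85), Itgb1 0 and 0.80 (rho -0.50), and Cd24a 1.2 and 4.8 (rho -0.47), while Spn in replicate 3 at that depth averaged 0.10 in 10 wells with Cd44 and 0.13 in 39 without it (rho -0.04). In 13 myeloid wells of CD44+ replicate 2, Msn averaged 1.67 in the 6 wells with Cd44 and 0.43 in the 7 without it (rho 0.34), Cd24a 2.17 and 0.43 (rho 0.38), and Spn 0.33 and 0.71 (rho -0.37). In 23 B wells of the same library no rho was above 0.25 or below -0.27. These counts are sparse, and the values describe single libraries.

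The relation of Itga4 to well quality is described here without a test. In wells of low quality it had 839, 305 and 590 CPM in CD44+ replicates 1, 2 and 3 and 966, 0 and 550 CPM in CD44- replicates 1, 2 and 3. In the other wells it had 294, 326 and 258 CPM across the CD44+ libraries, against 168, 219 and 165 CPM across the CD44- libraries. It was higher in the wells of low quality in 4 of 6 libraries; the library at 0 had 1 such well. Wells of low quality held 24.9% of its transcripts and 14.5% of all transcripts, while for the other 9 genes they held 2.84% to 7.43%. Over the 343 wells, Spearman's rho of Itga4's share with that of the Kcnq1ot1 group was 0.24, and for the other 9 genes it lay between -0.38 and -0.11. Cd47 ran the other way, with 138 ± 108 CPM in wells of low quality and 572 ± 72.7 CPM in the other wells (SD, n = 6 libraries), and so did Cd24a, with 294 ± 217 CPM and 1985 ± 667 CPM. The 1 such well of CD44- replicate 2 held no transcript of any of the genes. Of the 116 wells of low quality 84 had no class, so quality and cell class cannot be told apart here. Without wells of low quality the log2 difference of Itga4 between the sorts was 0.44, against 0.23 with them.

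**Figure D4:**
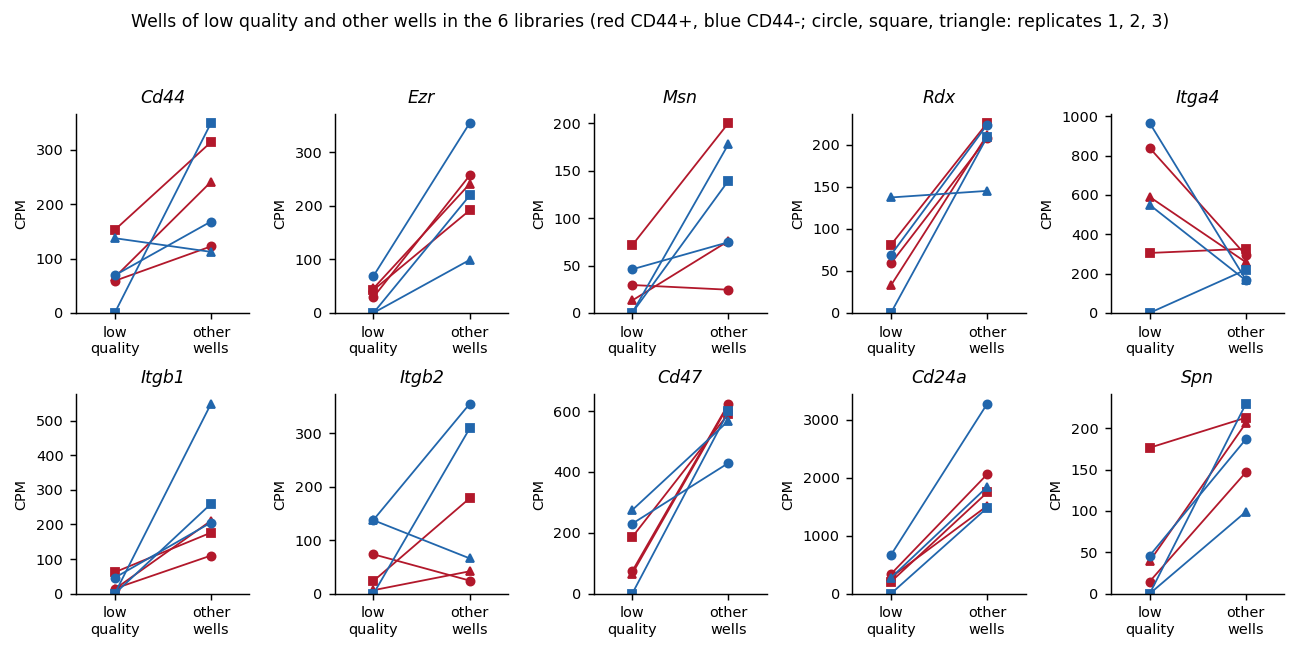
Each panel gives 1 gene's CPM (y axis, linear from 0) in the wells of low quality (left) and the other wells (right) of each library, joined by a line (red CD44+, blue CD44-). Itga4 is higher in the wells of low quality in 4 of 6 libraries, while Cd24a, Cd47, Ezr, Itgb1, Rdx and Spn are lower there in all 6. CD44- replicate 2 has 1 such well, with 0 transcripts of each gene.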

How the data were processed

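The deposited values are expected counts, transcripts per gene and well that the authors estimated from molecular identifiers, with no scaling between wells; 90.3% of the values above 0 were exactly whole, with no tolerance. The submitters' processing notes name BWA 0.7.15 and the build mm10; counter, annotation and strand setting: not given in the sources used here. Wells were read in row order over 16 rows, which the labels do not state, so that rows A to H of the shared plates are wells 1 to 192. Spike-ins were removed. Wells with at least 1000 transcripts were summed per plate and sort, or per library and class (at least 3 wells a sum), and sums were rounded to whole numbers. Wells were sorted as single cells per the labels, and doublets were not called.

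A well was given a class where at least 3 markers of its list were detected, with at least 5 transcripts and 3 times the sum of every other list; the erythroid lists were added up and the larger named the stage. Fits were made in R 4.3.3 with edgeR 4.0.16 and its quasi-likelihood test (TMM, filterByExpr, two-sided, Benjamini-Hochberg adjusted over all genes tested, threshold 0.05), without a covariate between sorts and with the library as block between classes. The SE is the log2 difference over the square root of the F statistic. CPM were scaled by the summed library without the TMM factor. DESeq2 1.42.0 was an alternative; the other alternatives are named in the closing section. Shares were compared by exact permutation in scipy 1.17.1. On simulated data, 125 tested genes of the sort comparison were changed by 3 on the log2 scale. Of these 100% were recovered, and 0.553% of other genes were called. With 118 tested genes changed by 1, 0% were recovered. The simulated libraries shared a mean profile and a fixed dispersion, without differences in cell mix, so these shares may not hold for the real sums. In the real comparison Spp1, at a log2 difference of -4.12, was not called (adjusted p = 0.0813 in edgeR).

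The genes, lists and splits were chosen with earlier results of these data known. Which animals a plate came from is not stated, and p-values therefore cover only the spread between libraries, which may be technical. Deviations from the sort mean correlated at 0.46, 0.31 and 0.32 for same-numbered libraries and at -0.36 to 0.08 for other combinations, and replicates 2 and 3 share plates, so the numbers were taken to pair the libraries. Genes were named by rule: all 10 genes, up to 4 called genes of each related list by smallest p, and the 5 genes closest to Cd44. A gene of the related lists that the naming rule would include is not reported here.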

Additional observations from a re-analysis of the deposited data

Results flagged for a closer look

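Of 20 sets of 5 library sums, 10 genes in B and in myeloid wells, 3 had a library far from the others by Dixon's criterion, which chance meets in about 1 in 20 sets. In myeloid wells, Itgb2 was high in CD44- replicate 1 at 803 CPM (20 transcripts), and Cd47 was low in the same library at 160 CPM (4 transcripts). Rdx was at 0 CPM in the 7 myeloid wells of CD44+ replicate 1, which held 14013 transcripts of all genes. Taking 3 transcripts as the limit that a count of 0 allows, this is up to 214 CPM, above every other myeloid sum of Rdx.

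The 1193 wells under 1000 transcripts, which entered no comparison, also held transcripts of all 10 genes: 64 of Cd44, 62 of Ezr, 14 of Msn, 35 of Rdx, 83 of Itga4, 57 of Itgb1, 36 of Itgb2, 80 of Cd47, 471 of Cd24a and 21 of Spn. The whole of these wells gave Cd44 257 CPM and Cd24a 1889 CPM.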

How the results depend on the processing

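Only 3 libraries stand behind each sort, and the CD44- libraries are shallow, at a median of 1795 to 2544 transcripts per well. On data simulated for the sort comparison, 0% of 118 tested genes changed by 1 on the log2 scale were called, so a lack of calls between sorts says little about changes of that size. The class contrasts rest on few wells, and their scaling moved with the method and with the libraries used. Itgb2 was higher in myeloid wells under every alternative in which it was tested, but over all sums the filter kept it through those wells. For each result below that changed, the cause was not tested.

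Between sorts, no alternative called any of the 10 genes that it tested, which were 4 in thinned wells, but signs near 0 turned. Without a filter on low counts the log2 difference was 0.41 for Cd44, 0.39 for Ezr, 0.46 for Rdx, 0.34 for Cd47 and 0.017 for Cd24a. With the replicate block it was 0.034 for Cd44 and 0.0035 for Ezr. It was 0.066 for Cd44 in thinned wells, 0.17 for Cd44 and 0.013 for Rdx without wells above the 99th percentile of depth, and 0.050 for Rdx, -0.018 for Itga4 and -0.30 for Spn without stromal wells. Spn had -0.00085 with DESeq2, -0.031 with RLE scaling, -0.11 in wells with at least 2000 transcripts and -0.023 without wells of low quality. Leaving out 1 library at a time gave -0.36 to 0.64 for Cd44, -0.46 to 0.33 for Ezr, -0.17 to 0.15 for Rdx, -0.21 to 1.12 for Itga4, -0.13 to 0.048 for Cd47 and -0.26 to 0.46 for Spn, and, with no change of sign, -2.30 to -1.001 for Itgb2. The difference in the share of wells with Cd44 was 0.99 percentage points at 1000 transcripts and 10.7 at 2000. Of all genes 25 were called, against 270 with DESeq2, 477 without the filter, 156 with the replicate block, 62 without wells of low quality, 5 without the deepest wells, 0 in thinned wells or without stromal wells, and 0 to 115 with 1 library left out. The replicate block changed no call among the 10 genes in this comparison.

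For late minus early erythroid wells 1 of the genes was called with DESeq2 (Cd47) and 1 without the replicate block (Itga4). For B minus early erythroid wells, where 1 was called, 0 were with RLE scaling, without the filter and in thinned wells, 2 without the replicate block (with Cd47) or under a stricter class rule (with Msn), and 0 to 1 with 1 library left out. The log2 difference turned to 0.98 with DESeq2, 0.79 with RLE scaling, 0.068 without the filter and 0.32 without wells of low quality for Cd44 (-0.60 to 0.92 with 1 library left out), and to 0.32, 0.31 and, under the stricter rule, 0.56 for Cd24a (-0.77 to 0.088). For myeloid minus early erythroid wells, where 2 were called, 1 was without the filter, 4 in the CD44+ libraries or with at least 5 wells a sum, 0 in thinned wells, and 0 to 3 with 1 library left out. For myeloid minus B wells, where 1 was called, 2 were with DESeq2, with RLE scaling, in the CD44+ libraries, without wells of low quality or with at least 5 wells a sum, 0 in thinned wells, and 0 to 2 with 1 library left out; Itgb1 turned to -1.14 in thinned wells. Between sorts within a class, where 0 genes were called, 14 were in B wells and 1 in myeloid wells with the replicate block, and 0 to 8 and 0 to 13 with 1 library left out. Cd44 between sorts in myeloid wells ranged from -0.99 to 1.5 with 1 library left out. RLE scaling moved the split of all genes called to 182 higher and 55 lower, against 102 and 321, for B minus early erythroid, to 188 and 48, against 122 and 259, for myeloid minus early erythroid, to 88 and 71, against 119 and 58, for myeloid minus B, and to 33 and 0, against 10 and 145, for late minus early erythroid. Over all alternatives the genes called ran from 0 to 296, 34 to 964, 53 to 1067 and 40 to 473 for late minus early, B minus early, myeloid minus early and myeloid minus B.

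Between later and earlier erythroid wells, where 2 were called, 1 was with DESeq2, 0 in thinned wells and 0 to 1 with 1 library left out. Msn turned to 0.016 without the replicate block and 0.47 without wells of low quality. With 1 library left out Msn ranged from -0.20 to 0.090, Itga4 from -0.28 to 0.36 and Cd47 from -0.048 to 0.55. Of all genes 99 were called, against 35 with DESeq2, 195 without wells of low quality, 3 in thinned wells and 1 to 88 with 1 library left out. The split into later and earlier wells, its alternatives, those of the sort contrast within a class and the comparison of wells by quality were chosen after seeing the data.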

Other observations

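In the CD44+ libraries, B wells were also compared with early erythroid wells over the lists of related genes, in edgeR with the library as block. Of 6 tested sialomucins and sialic acid lectins 3 rose, among them Siglecg, an inhibitory lectin of B cells (log2 difference 5.96), and Selplg (2.84), and 0 fell. Of 16 integrin activation genes 4 rose, among them Rasgrp2 (5.03), and Vcl fell (-2.88). Of 13 ERM regulators and cortex genes 4 rose, among them Pik3ip1 (6.78), and Ank1 fell (-5.61). Of 13 ligands or partners 0 rose and 2 fell, Mif (-1.78), which encodes the ligand of CD74, and Mmp14 (-2.95). Of 5 integrin chains Itgam rose (3.72) and 0 fell. The background was 16.3% of 5918 genes called in either direction. Here too the filter kept only part of each list, and a gene could pass it by a high count in 1 sum alone. In myeloid relative to B wells of the same libraries 1 of 5 integrin chains, 3 of 16 activation genes, 3 of 13 ligands or partners, 0 of 13 ERM regulators and cortex genes and 2 of 6 sialomucins rose, and Siglecg fell (-3.47), against a background of 7.99% of 5918 genes in either direction.

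Markers of further cell types were summed over each list in the 6 libraries, where megakaryocyte markers gave 13.4 to 35.1 CPM in the CD44+ libraries and 0 to 82.4 CPM in the CD44- libraries. Markers of T, NK and innate lymphoid cells gave 37.5 to 120 CPM in the CD44+ libraries and 138 to 196 CPM in the CD44- libraries. Mast cell and basophil markers gave 0 to 9.83 CPM in the CD44+ libraries and 0 to 12.6 CPM in the CD44- libraries. Endothelial markers gave 20 to 56.3 CPM in the CD44+ libraries and 30.9 to 44.1 CPM in the CD44- libraries. Plasmacytoid dendritic markers gave 22.3 to 114 CPM in the CD44+ libraries and 49.3 to 536 CPM in the CD44- libraries. B markers gave 290 to 3741 CPM in the CD44+ libraries and 2648 to 3351 CPM in the CD44- libraries, and late erythroid markers 1223 to 2348 CPM in the CD44+ libraries and 1679 to 3970 CPM in the CD44- libraries.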
